A study of Mus musculus with 16 samples.

Results

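The BAF complex is the mammalian SWI/SNF chromatin remodeller, and 10 genes of its interchangeable subunits were followed here: Smarca4, Smarca2, Smarcc1, Smarcc2, Smarcd1, Smarcd3, Actl6a, Actl6b, Phf10 and Dpf1. They were chosen by gene symbol among 24159 genes, and 15 RefSeq transcripts of them were in the table, with 1 transcript each for 7 of the genes, 2 for Smarca2 and 3 each for Smarca4 and Smarcc2. All 10 had a value above 0 in at least 1 library and were tested, and 9 of the 10 averaged more than 1 FPKM (a level per unit of transcript length and of sequenced fragments). The exception was Actl6b.

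The RNA came from embryoid bodies (EBs) of R1 mouse embryonic stem cells, an established line, grown for 4 days without Lif, the factor that holds such cells in the stem cell state. Day 0 is the day on which 2 µM retinoic acid (RA), an inducer of differentiation, was added, so the day 0 EBs had no RA and the day 4 EBs had received it for 4 days. All groups thus shared the cell line and the first 4 days without Lif, and no EBs kept for 4 days without RA were analysed here, so RA and time in culture cannot be told apart. Although the labels call the cells embryonic stem cells, both groups were EBs of mixed cell types. There were 2 RNA samples per day, and each was divided into 4 vials that received spike-in mix 1, 2 or 3 of in vitro transcribed (IVT) mouse RNA or, as mix 4, none. ERCC spike-ins, a commercial set of control RNAs, were added as ERCC mix 1 to the vials of mixes 1 and 3 and as ERCC mix 2 to those of mixes 2 and 4. Each vial gave 1 stranded library of total RNA depleted of ribosomal RNA, 16 libraries in all. Vials split from the same RNA are no replicates of a day, so each RNA sample entered the tests as the mean of its 4 vials, with n = 2 per day.

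A BAF complex holds 1 of 2 ATPases, BRG1 (Smarca4) or BRM (Smarca2), which use ATP to move or evict nucleosomes. Around it stand scaffold subunits and members of small families that replace each other. The combination changes in development: embryonic stem cells are known for complexes built on BRG1 and BAF155 (Smarcc1), neural progenitors for BAF53a (Actl6a) with BAF45a (Phf10), and neurons for BAF53b (Actl6b) with BAF45b (Dpf1) and other late forms. BAF60c (Smarcd3) is known from heart and muscle development.

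The table gives FPKM and not fragment counts, so the number of fragments behind a single value is unknown, although the study lists the reads of each library. The libraries summed to 411090 to 622888 FPKM and had 20555 to 22156 transcripts above 0, both over the 33702 RefSeq and 48 spike-in transcripts together. The vials of mixes 3 and 4 of day 0 RNA sample 2 stood apart from the other vials of that RNA. In the study's mapping statistics they also had a larger share of reads within introns than the other day 0 vials. Over transcripts, the log2 deviation from the mean library rose by 0.55 to 1.198 for each 10% more GC in the other 6 day 0 vials, whereas it had slopes of -0.998 to -0.791 in those 2 vials and of -0.77 to -0.21 in the 8 day 4 vials. The dependence on GC therefore differed between splits of 1 RNA and between the days, and its part in the day differences was not tested beyond a GC correction given with the results. Between the vials of mixes 3 and 4 and those of mixes 1 and 2 of this RNA, 24.4% of all genes differed by more than 1 on the log2 scale.

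Of the 10 members, 3 passed the test between the days. Smarca2 and Smarcd3 rose, Actl6a fell, and the other 7 had adjusted p-values of 0.0652 or more (limma on log2(FPKM + 0.1), Benjamini-Hochberg over all genes, threshold 0.05). Of all 20491 genes tested, 30.5% were called, 16% as higher and 14.5% as lower at day 4, so a count of 3 in 10 is at the background. With the RNA replicate as a block, 6 members were called, since Smarcc2 rose and Smarca4 and Smarcd1 fell as well, where 51.7% of all genes were called, 22.5% as higher and 29.1% as lower. Without the 2 vials that stood apart the same 6 members were called in the same directions, where 61.5% of all genes were called, 27.3% as higher and 34.2% as lower. Without day 4 RNA sample 1 or without day 4 RNA sample 2, limma called 0 members and 0 genes, where 4861 and 4572 genes had an unadjusted p of at most 0.05. Without day 0 RNA sample 1 it called 3 members higher and 0 lower, where 25% of all genes were called (13.1% higher, 11.9% lower). Without day 0 RNA sample 2 it called 2 higher and 3 lower, where 48.5% of all genes were called (19.2% higher, 29.3% lower), so these counts are near the background too. The median log2 fold change of the 10 was -0.11, and that of all genes was -0.03.

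**Figure D1:**
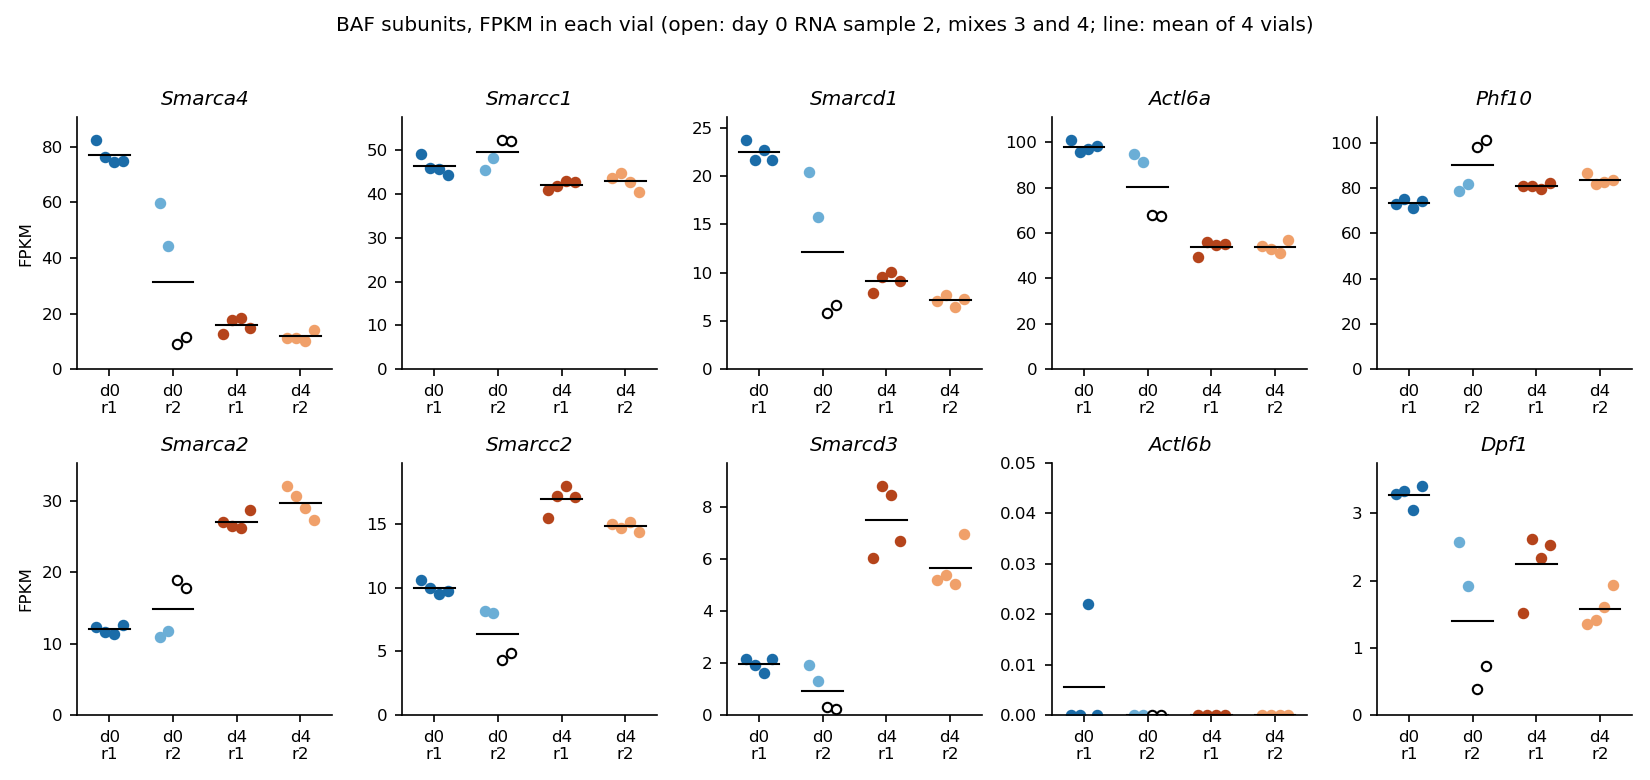
FPKM of the 10 BAF subunits in each vial, with RNA samples 1 and 2 (r1, r2) of day 0 (d0) and day 4 (d4) along the x axis, the line at the mean of 4 vials and open circles for the vials of mixes 3 and 4 of day 0 RNA sample 2. The 8 day 4 vials lie above all day 0 vials for Smarca2, Smarcc2 and Smarcd3 and below them for Actl6a, and the open circles of Smarca4 and Smarcd1 lie within or below the range of the day 4 vials. Of all genes, 19.8% had all day 4 vials higher and 14.6% had all lower.

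Of the ATPases, Smarca4 (chromosome 9, 21616106 to 21704230, GRCm38) had 77.0 and 31.2 FPKM in the RNA samples of day 0 and 15.9 and 11.7 FPKM in those of day 4. The 4 vials of day 0 RNA sample 1 held 74.4 to 82.4 FPKM. In RNA sample 2 the vials of mixes 1 and 2 held 59.8 and 44.4 FPKM, and those of mixes 3 and 4 held 9.00 and 11.5 FPKM. The 6 other day 0 vials were thus above every day 4 vial, and the 2 that stood apart were within or below the day 4 range of 10.2 to 18.5 FPKM. The log2 fold change was -1.84 ± 0.51 (SE, n = 2 per day, adjusted p = 0.0652), which did not pass. It passed with the replicate block (adjusted p = 0.000249) and without the 2 vials (-2.21 ± 0.26, adjusted p = 0.00338). After GC correction the log2 fold change was smaller, -0.71 ± 0.16 (adjusted p = 0.0266).

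Smarca4 was divided over 3 transcripts, all with lower values at day 4 and log2 fold changes of -1.55 ± 0.50 (SE) for NM_001174078, -1.75 ± 0.53 for NM_001174079 and -2.31 ± 0.55 for NM_011417. None passed, with adjusted p-values of 0.0654 to 0.107. Their coding parts differ by short inserts, so how reads were shared among them is uncertain, and NM_001174079 and NM_011417 have 0 exonic bases of their own. The coding insert that sets NM_001174078 apart from NM_011417 has 9 bases, at chromosome 9, 21686013 to 21686021 on the plus strand, and adds 3 residues. It is shown, read from the GENCODE transcript on GRCm38 with the insert in capitals and 21 coding bases on each side, because it is the coding difference between these isoforms.
Smarca4 NM_001174078: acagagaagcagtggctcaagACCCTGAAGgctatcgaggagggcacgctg

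Smarca2 (chromosome 19, 26605073 to 26778321) had 11.99 and 14.9 FPKM at day 0, against 27.1 and 29.7 FPKM at day 4. The 8 day 0 vials reached from 10.9 FPKM over a median of 12.02 to 18.9 FPKM, and the 8 day 4 vials from 26.2 over a median of 28.0 to 32.1 FPKM. The vials of the days did not overlap, a pattern that 34.4% of all genes showed, 19.8% with day 4 higher and 14.6% with day 4 lower. Smarcc2, Smarcd3 and Actl6a showed it too, and with such shares it is not read as particular to the members. Smarca2 rose by a log2 fold change of 1.08 ± 0.18 (SE, adjusted p = 0.0245), 2.12-fold, and the value was 1.28 ± 0.09 without the 2 vials and 1.06 ± 0.17 after GC correction.

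The higher level of Smarca2 at day 4 was assigned to a short transcript, while the one that encodes the whole ATPase had lower values at day 4. The full-length transcript NM_011416 has 33 exons, 5921 bases and a coding length for 1583 residues (chromosome 19, 26605052 to 26778321, plus strand). The short transcript NM_026003 starts far downstream, has 9 exons, 1962 bases and a coding length for 236 residues (26748403 to 26778321), and all its coding bases lie in exons of the full-length one. It shares 1689 bases with the full-length transcript and has 273 of its own, all outside the coding part, so the division of reads between them rests on the isoform estimate.

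NM_011416 had 10.9 and 6.36 FPKM in the day 0 RNA samples and 3.85 and 3.30 FPKM in those of day 4. NM_026003 had 1.11 and 8.49 FPKM at day 0, then 23.2 and 26.4 FPKM at day 4. The short transcript therefore made up 9.19% and 49.4% of the FPKM of Smarca2 at day 0, and 85.8% and 88.8% at day 4.

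Neither transcript passed the test over all transcripts, with log2 fold changes of -1.20 ± 0.34 (SE, adjusted p = 0.0848) for NM_011416 and 2.95 ± 1.05 (adjusted p = 0.127) for NM_026003. Both passed with the replicate block (adjusted p = 0.0290 and 0.0335) and without the 2 vials (adjusted p = 0.00505 and 0.00348). The vials of 1 RNA differed widely too: in day 0 RNA sample 2 the short transcript had 1.11 and 2.81 FPKM in the vials of mixes 1 and 2, but 15.97 and 14.1 FPKM in those of mixes 3 and 4. The full-length transcript had 9.82 and 8.94 FPKM in the former and 2.92 and 3.77 FPKM in the latter, which is within or below the day 4 range of 3.02 to 4.37 FPKM. The log2 differences of mixes 3 and 4 to mixes 1 and 2 were 2.87 for the short and -1.46 for the full-length transcript. Between the days, without those vials of mixes 3 and 4, the log2 fold changes were 3.98 and -1.48. The vials of mixes 1 and 2 enter both. The GC content is 51.1% for the full-length and 43.0% for the short transcript, and the part of the GC trend in this split was not tested.

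**Figure D2:**
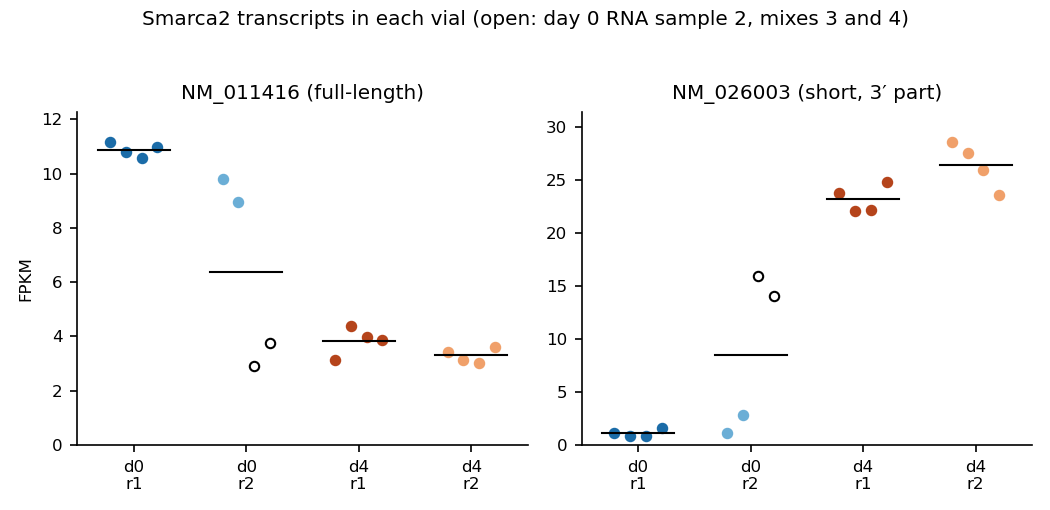
FPKM of the full-length (left) and the short (right) Smarca2 transcript in each vial, with RNA samples 1 and 2 (r1, r2) of day 0 (d0) and day 4 (d4) along the x axis, lines at the mean of 4 vials and open circles for mixes 3 and 4 of day 0 RNA sample 2. The short transcript is at 22.1 to 28.6 FPKM in the day 4 vials and at 0.85 to 2.81 FPKM in the 6 day 0 vials drawn as filled circles.

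The log2 ratio of Smarca2 over Smarca4 was -2.67 and -1.06 at day 0 and 0.77 and 1.33 at day 4. It differed by 2.92 between the days, with an SD of 1.14 at day 0 and 0.40 at day 4, and the exact two-sided permutation test gave p = 0.333, the smallest p that 2 samples against 2 allow. The vials overlapped between the days, with -2.74 to 1.06 at day 0 and 0.50 to 1.49 at day 4. The 2 vials that stood apart, at 0.63 and 1.06, lay within the day 4 range. Counting only the full-length transcript of Smarca2, the ratio was -2.81 and -2.28 at day 0 and -2.01 and -1.80 at day 4, a difference of 0.64 (exact permutation p = 0.333). Over both transcripts, Smarca4 held 86.5% and 58.8% of the FPKM of the ATPase genes at day 0 and 36.8% and 28.3% at day 4.

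The scaffold subunits BAF155 (Smarcc1) and BAF170 (Smarcc2) form dimers that hold the complex together. Smarcc1 (chromosome 9, 110132024 to 110240178) was nearly level, at 46.3 and 49.6 FPKM at day 0, against 42.2 and 42.9 FPKM at day 4, with vials of 44.4 to 52.3 and 40.5 to 44.8 FPKM that overlapped. Its log2 fold change was -0.17 ± 0.13 (SE, adjusted p = 0.377). Smarcc2 (chromosome 10, 128459182 to 128490591) had 9.95 and 6.35 FPKM at day 0, then 16.9 and 14.8 FPKM at day 4. Its day 0 vials reached from 4.34 over a median of 8.86 to 10.6 FPKM and its day 4 vials from 14.4 over a median of 15.3 to 17.98 FPKM, with no overlap. The log2 fold change of 0.98 ± 0.28 (SE, adjusted p = 0.0693) did not pass, and it passed with the replicate block (adjusted p = 0.00562), without the 2 vials (0.81 ± 0.15, adjusted p = 0.0109) and after GC correction (1.60 ± 0.10, adjusted p = 0.00121). In the 2 vials that stood apart Smarcc2 was at 4.34 and 4.85 FPKM, further from the day 4 level than in the other day 0 vials.

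Of the 3 Smarcc2 transcripts, the higher level at day 4 was assigned to NM_198160. It has 64 exonic bases of its own among 4533, with 0 of them coding, so the assignment rests on the isoform estimate. It had 7.94 and 6.02 FPKM at day 0, against 16.2 and 14.2 FPKM at day 4, rose by a log2 fold change of 1.12 ± 0.22 (SE, adjusted p = 0.0461), and was the only 1 of the 15 member transcripts that passed, where 18.9% of all transcripts did (10.2% higher, 8.67% lower). This call was lost in 6 of 10 alternatives, among them a pseudocount of 1 (adjusted p = 0.0528), no filter (0.0784) and each RNA sample left out (0.0609 to 0.295). NM_025891, the single Smarcd3 transcript, had an adjusted p of 0.0502 in this test. With the replicate block 9 of the 15 passed, 3 as higher and 6 as lower, against 35.6% of all transcripts (14.7% higher, 20.9% lower). NM_001114097, which has 342 coding bases of its own, had 1.57 and 0.26 FPKM at day 0, then 0.29 and 0.18 FPKM at day 4 (log2 fold change -1.25 ± 0.87, adjusted p = 0.355). Its share of the Smarcc2 FPKM was 15.7% and 3.58% at day 0 and 1.62% and 1.19% at day 4. NM_001114096, which alone holds a coding exon of 93 bases, was below 1 FPKM in every vial. That exon, at chromosome 10, 128481682 to 128481774 on the plus strand, adds 31 residues and is shown in capitals, read from the GENCODE transcript on GRCm38, because the transcript that holds it was estimated at 4.31% and 0.86% of the Smarcc2 FPKM at day 0 and at 2.64% and 2.67% at day 4.
Smarcc2 NM_001114096: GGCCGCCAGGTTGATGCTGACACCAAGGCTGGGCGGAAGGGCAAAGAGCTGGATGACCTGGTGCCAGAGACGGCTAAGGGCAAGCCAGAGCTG

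The log2 ratio of Smarcc2 over Smarcc1 was -2.21 and -2.95 at day 0 and -1.31 and -1.53 at day 4. The difference was 1.16, with SDs of 0.52 and 0.15 (exact permutation p = 0.333). Smarcc1 remained the larger share at both days, with 82.3% and 88.6% of the FPKM of the 2 genes at day 0 and 71.4% and 74.3% at day 4.

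The BAF60 subunits link the complex to transcription factors, and here the largest relative change among the members in the main test was that of Smarcd3. Smarcd3 (BAF60c, chromosome 5, 24592622 to 24624456) had 1.97 and 0.94 FPKM at day 0, against 7.52 and 5.65 FPKM at day 4. The day 0 vials reached from 0.23 over a median of 1.76 to 2.17 FPKM and the day 4 vials from 5.04 over a median of 6.39 to 8.82 FPKM, with no overlap. It rose by a log2 fold change of 2.17 ± 0.43 (SE, adjusted p = 0.0339), 4.51-fold, and the change was 1.82 ± 0.21 without the 2 vials and 3.598 ± 0.12 after GC correction. The call of Smarcd3 was lost with no filter on low values (adjusted p = 0.0876) and from log means of the vials (0.0601). In the 2 vials that stood apart it was at 0.32 and 0.23 FPKM, below the other day 0 vials and further from day 4.

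Smarcd1 (BAF60a, chromosome 15, 99702287 to 99713995) had 22.4 and 12.1 FPKM at day 0, then 9.17 and 7.10 FPKM at day 4. The 6 day 0 vials other than the 2 held 15.8 to 23.7 FPKM, and the 2 held 5.79 and 6.60 FPKM against a day 4 range of 6.47 to 10.1 FPKM. The log2 fold change of -1.02 ± 0.37 (SE, adjusted p = 0.111) did not pass. It passed with the replicate block (adjusted p = 0.00492) and without the 2 vials (-1.31 ± 0.19, adjusted p = 0.00555), but after GC correction the sign turned, with 0.21 ± 0.19 (adjusted p = 0.409).

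The ratio of Smarcd3 over Smarcd1 was, of the 4 ratios, the closest between RNA samples of a day, at log2 values of -3.45 and -3.56 at day 0 and -0.28 and -0.33 at day 4. The difference of 3.20 was much larger than the SDs of 0.08 and 0.03 (exact permutation p = 0.333, the smallest possible), and it was 3.39 after GC correction. No vial overlapped between the days, with -4.33 to -3.27 at day 0 and -0.49 to -0.06 at day 4. Within the BAF60 family, Smarcd3 held 3.08% and 2.45% of the FPKM at day 0 and 21.5% and 20.5% at day 4. Smarcd2 held the largest share at both days, 61.9% and 60.3% and then 52.1% and 53.6%.

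**Figure D3:**
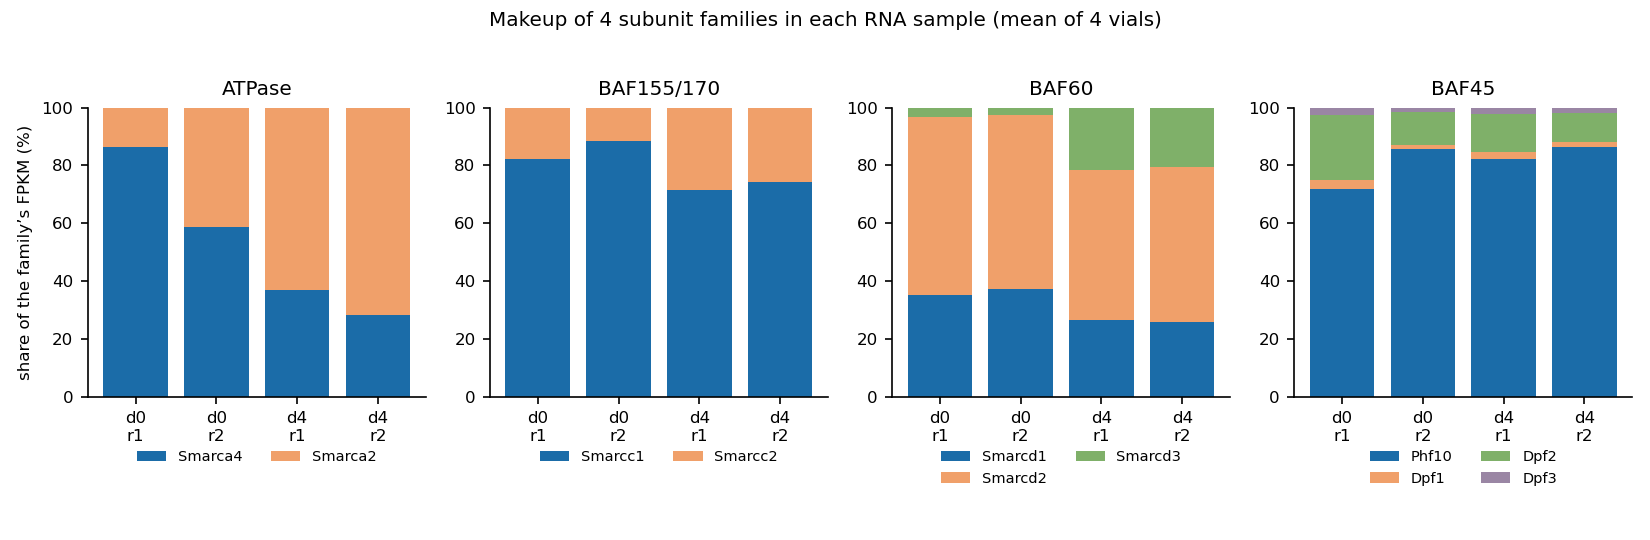
Share in percent of the summed FPKM of 4 subunit families held by each gene, as stacked bars for RNA samples 1 and 2 (r1, r2) of day 0 (d0) and day 4 (d4), each the mean of 4 vials. Smarca2 and Smarcd3 hold larger shares at day 4 in both RNA samples, at 63.2% and 71.7% for Smarca2 and 21.5% and 20.5% for Smarcd3.

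Of the actin-related subunits, which stabilise the ATPase module, only Actl6a (BAF53a) was expressed beyond a trace. Actl6a (chromosome 3, 32708546 to 32726973) had 98.0 and 80.3 FPKM at day 0, against 53.8 and 53.8 FPKM at day 4. The day 0 vials reached from 67.7 over a median of 95.2 to 100.9 FPKM and the day 4 vials from 49.3 over a median of 54.4 to 56.8 FPKM, without overlap. Actl6a fell by 0.72 ± 0.16 on the log2 scale (SE, adjusted p = 0.0447), 1.65-fold, and its log2 fold change was -0.83 ± 0.08 without the 2 vials and -0.73 ± 0.08 after GC correction. The adjusted p is close to the threshold, and the call of Actl6a was lost with equal sums of FPKM per library (-0.46, adjusted p = 0.154), from log means (0.0553), with no filter (0.0689) and without day 0 RNA sample 1 (0.0507). The 2 vials held 67.8 and 67.7 FPKM, between the other day 0 vials and those of day 4.

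Actl6b (BAF53b, the neuronal form, chromosome 5, 137553361 to 137569582) was listed at 0 in all 8 day 4 vials and in 7 of 8 day 0 vials, and at 0.022 FPKM in the vial of mix 3 of day 0 RNA sample 1. No fold change or ratio to Actl6a is given for it. Promoter windows of 300 bases on GRCm38.p6 are shown for Smarcd3, which had the largest relative rise, and Actl6b, which stayed at a trace. Each runs from 250 bases before to 50 after the start set for that window, with each CG in capitals. For both genes that start is not the first base given here for the gene or its transcript. Smarcd3 is on the minus strand at chr5:24601953-24602252 and Actl6b on the plus strand at chr5:137553296-137553595. The window of Smarcd3 lies inside the span of the gene and holds the first base of NM_025891 (24602012), its only transcript in the table. The window of Actl6b holds the first base listed for the gene (137553361) and the first base of its transcript (137553520).
Smarcd3: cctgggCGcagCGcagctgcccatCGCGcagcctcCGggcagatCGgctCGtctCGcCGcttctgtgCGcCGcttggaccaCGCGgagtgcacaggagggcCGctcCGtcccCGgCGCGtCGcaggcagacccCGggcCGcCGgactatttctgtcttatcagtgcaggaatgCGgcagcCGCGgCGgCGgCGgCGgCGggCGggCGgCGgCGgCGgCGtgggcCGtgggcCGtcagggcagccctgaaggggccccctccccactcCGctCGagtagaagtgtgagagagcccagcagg
Actl6b: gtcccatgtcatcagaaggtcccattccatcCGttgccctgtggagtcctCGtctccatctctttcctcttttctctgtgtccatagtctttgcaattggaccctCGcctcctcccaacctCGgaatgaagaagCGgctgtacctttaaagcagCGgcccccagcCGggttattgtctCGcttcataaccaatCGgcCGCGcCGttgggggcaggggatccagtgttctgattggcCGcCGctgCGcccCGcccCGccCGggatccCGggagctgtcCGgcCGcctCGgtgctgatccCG
The Smarcd3 promoter holds 40 CG and that of Actl6b 23, against a median of 7 over 32851 promoters of this length. Phf10 with 62 and Actl6a with 21 mark the ends of the range over the 10 members. The retinoid receptor half-site AGGTCA, searched on both strands, was in 0 of the 10 windows and in 16.3% of all promoters, which says only that these letters are not in these windows.

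Phf10 (BAF45a) and Dpf1 (BAF45b) carry PHD fingers, domains that read histone tails. Phf10 (chromosome 17, 14944994 to 14961260) had 73.3 and 90.0 FPKM at day 0, then 80.8 and 83.6 FPKM at day 4. Its vials overlapped, and the highest, at 98.2 and 101.2 FPKM, were the 2 that stood apart. The log2 fold change was 0.02 ± 0.17 (SE, adjusted p = 0.945). Dpf1 (chromosome 7, 29303952 to 29317592) had 3.27 and 1.40 FPKM at day 0, against 2.25 and 1.58 FPKM at day 4, with day 0 vials of 0.38 to 3.41 FPKM that enclosed the day 4 vials of 1.35 to 2.62 FPKM. Its log2 fold change was -0.18 ± 0.50 (SE, adjusted p = 0.790), but 1.14 ± 0.12 (adjusted p = 0.00357) after GC correction, so that its direction depended on the treatment of GC content. The log2 ratio of Dpf1 over Phf10 was -4.45 and -5.91 at day 0 and -5.11 and -5.64 at day 4 (difference -0.20, SDs 1.03 and 0.38, exact permutation p = 1).

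In the order of mean FPKM, Actl6a (89.2), Phf10 (81.6), Smarca4 (54.1) and Smarcc1 (48.0) led at day 0. The RNA samples of Actl6a, Phf10 and Smarca4 each overlapped with those of the next gene, and those of Smarcc1 did not. Smarcd1 (17.3) and Smarca2 (13.4) followed, then Smarcc2 (8.15), Dpf1 (2.34) and Smarcd3 (1.45), and among these Smarcd1 overlapped with Smarca2 and Dpf1 with Smarcd3. At day 4 the order was Phf10 (82.2), Actl6a (53.8), Smarcc1 (42.6), Smarca2 (28.4), Smarcc2 (15.9), Smarca4 (13.8), Smarcd1 (8.14), Smarcd3 (6.58) and Dpf1 (1.91). Smarcc2 overlapped with Smarca4 there, and Smarcd1 with Smarcd3. Smarca4 thus went from the third to the sixth place, and Smarca2 from the sixth to the fourth. These places have limits. Smarca2 is summed over both transcripts, and its full-length transcript had 3.85 and 3.30 FPKM at day 4. The change of Smarca4 did not pass the main test. After GC correction Smarca4 was below Smarcc1 at day 0, with 35.0 and 26.2 against 45.7 and 53.2 FPKM.

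The difference between splits of 1 RNA can be set beside the difference between the days for each member. Both use the vials of mixes 1 and 2 of day 0 RNA sample 2, so their signs are not independent of each other and a shared sign is not a result. For Smarca4, Smarcd1, Actl6a and Dpf1 the vials of mixes 3 and 4 were lower than those of mixes 1 and 2 of the same RNA, with log2 differences of -2.34, -1.53, -0.46 and -1.84, and for Smarca2 they were higher, with 0.69. The log2 fold changes between the days without those vials were -2.21, -1.31, -0.83, -0.50 and 1.28 for these members. For Smarcd3 and Smarcc2 the log2 difference of mixes 3 and 4 to mixes 1 and 2 was -2.19 and -0.81, and the log2 fold change between the days was 1.82 and 0.81. Phf10 (0.31 between the vials and 0.10 between the days) and Smarcc1 (0.15 and -0.13) differed little in both, and Actl6b was at 0 in all 4 of those vials. For Smarca4, Smarcc1, Smarcd1, Smarcd3, Phf10 and Dpf1 the difference between splits of 1 RNA was larger in size than that between the days. How often this held among all genes was not determined, so it is not read as particular to the members.

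**Figure D4:**
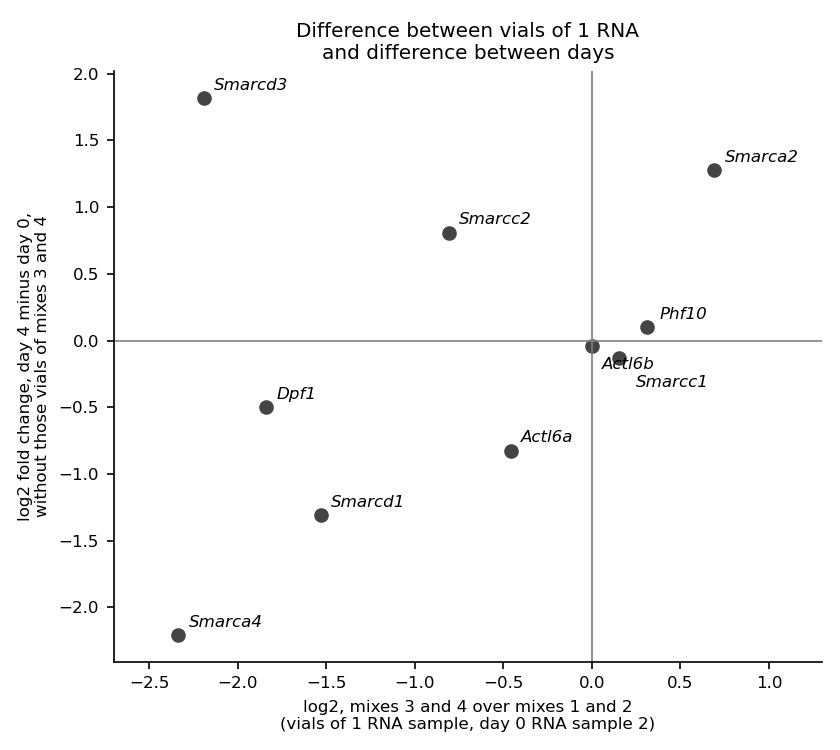
Each point is 1 BAF subunit, with the log2 difference between the vials of mixes 3 and 4 and those of mixes 1 and 2 of day 0 RNA sample 2 on the x axis and the log2 fold change of day 4 minus day 0 without those vials of mixes 3 and 4 on the y axis. Both axes use the vials of mixes 1 and 2, and Smarcd3 (-2.19, 1.82) and Smarcc2 (-0.81, 0.81) are the points of the upper left.

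Across treatments of the data, 6 of the 10 members were called after GC correction as well, where 52.5% of all genes were (27.9% higher, 24.7% lower), but they were not the same 6. Smarca2, Smarcc2, Smarcd3 and Dpf1 were higher and Smarca4 and Actl6a lower. Smarca2, Smarcd3 and Actl6a were called in the main test, with the block, without the 2 vials and after GC correction. Over 22 alternatives, the call of Smarca2 was lost in 4, that of Smarcd3 in 6 and that of Actl6a in 8, which for each include both fits that leave out a day 4 RNA sample and the vials of mix 3 or mix 4 alone.

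**Figure D5:**
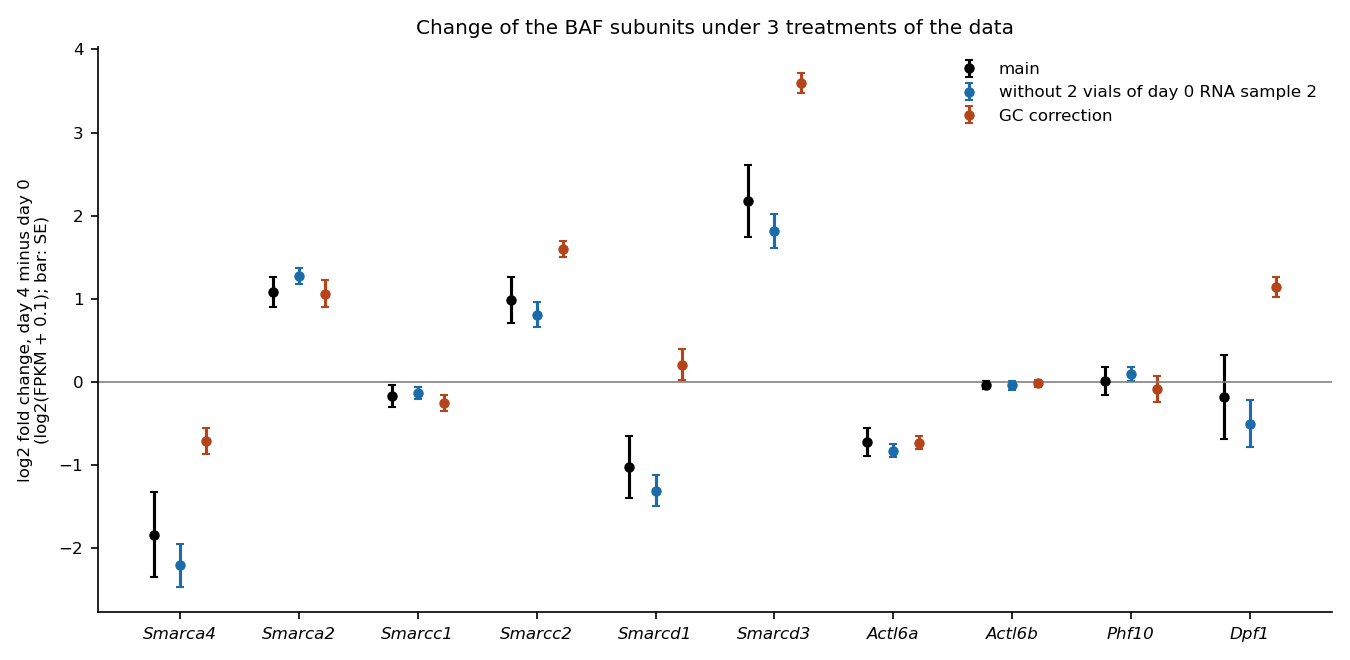
Log2 fold change of the 10 BAF subunits, day 4 minus day 0, on the log2(FPKM + 0.1) scale with its SE as the bar, for the main test (black), without the 2 vials of day 0 RNA sample 2 (blue) and after GC correction (red). Smarca2, Smarcd3 and Actl6a keep their direction in all 3, while Smarcd1 (-1.02 and 0.21) and Dpf1 (-0.18 and 1.14) change sign between the main test and the GC correction.

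Among 21 other subunits of the BAF, PBAF and ncBAF complexes, 3 rose and 1 fell, where 16% of all genes were called higher and 14.5% lower, and the median log2 fold change was -0.16. Bcl11a, a zinc finger subunit known from neurons and blood, had 0.41 and 0.37 FPKM at day 0, then 5.23 and 5.93 FPKM at day 4, a log2 fold change of 3.53 ± 0.24 (SE, adjusted p = 0.00529). Its paralog Bcl11b rose by 1.23 ± 0.21 on the log2 scale (adjusted p = 0.0267), but its change did not pass after GC correction (adjusted p = 0.0871).

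The SS18 family is another of the exchanged pairs, with Ss18l1 (CREST) as the neuronal form. Ss18l1 had 1.61 and 1.62 FPKM at day 0, against 4.07 and 3.96 FPKM at day 4 and rose by 1.26 ± 0.21 on the log2 scale (SE, adjusted p = 0.0233). Ss18 had 61.9 and 58.8 FPKM at day 0, then 39.6 and 41.5 FPKM at day 4 and fell by 0.57 ± 0.13 (adjusted p = 0.0467). The call of Ss18 was lost in 9 of 22 alternatives, among them equal sums per library (-0.32, adjusted p = 0.327), median-of-ratios scaling (0.0781), a pseudocount of 0.01 (0.0513) and log means (0.0505). The 2 vials that stood apart were close to the other day 0 vials for both, with Ss18l1 holding 2.62% and 2.75% of the FPKM of the pair there, 2.42% to 2.87% over all day 0 vials and 8.11% to 9.63% over the day 4 vials. Ss18l1 therefore rose without overlap of vials, as 19.8% of all genes did, although Ss18 remained the main form.

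Of the remaining 17, the BAF-defining Arid1a had 6.42 and 4.61 FPKM at day 0, against 3.04 and 2.78 FPKM at day 4 (log2 fold change -0.88 ± 0.25, adjusted p = 0.0709). Its lower level passed with the replicate block (adjusted p = 0.0219), and the value was 0.074 ± 0.42 after GC correction. The PBAF subunits Arid2, Pbrm1 and Brd7 had log2 fold changes of 0.30, 0.29 and -0.02, with adjusted p-values of 0.251, 0.417 and 0.904. The core subunits Smarcb1 (-0.74 ± 0.41, adjusted p = 0.233) and Smarce1 (0.51 ± 0.16, adjusted p = 0.0828) did not pass. Smarcb1 passed as lower with the block (adjusted p = 0.0180), but its sign turned after GC correction, with 0.20 ± 0.06 (adjusted p = 0.0596). Smarce1 passed as higher after GC correction (0.0114). Actb, the actin subunit and a common reference gene, did not pass in the main test (-1.80 ± 0.45, adjusted p = 0.0543), whereas it passed as lower with the block (0.000470), without the 2 vials (0.00234) and after GC correction (0.0245). With the replicate block 4 of the 21 rose and 7 fell, against 22.5% and 29.1% of all genes. Without the 2 vials 7 rose and 10 fell, against 27.3% and 34.2%, and after GC correction 5 rose and 2 fell, against 27.9% and 24.7%.

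REST represses neuronal genes outside neurons and works with the CoREST proteins. Rest had 32.9 and 23.7 FPKM at day 0, then 21.1 and 20.9 FPKM at day 4 (log2 fold change -0.41 ± 0.22, adjusted p = 0.215). Of 5 genes of REST and its corepressors, Rcor3 rose, with a log2 fold change of 1.57 ± 0.19 (SE, adjusted p = 0.0129), and Rcor2 fell, with a log2 fold change of -2.05 ± 0.36 (adjusted p = 0.0265). The fall of Rcor2 did not pass after GC correction (-0.53, adjusted p = 0.332), when 3 of the 5 rose and 0 fell, against 27.9% and 24.7% of all genes. Rcor1 rose with the replicate block (adjusted p = 0.0466) but not in the main test (0.56 ± 0.14, adjusted p = 0.0549). Of 16 other remodelling ATPases measured, 2 rose and 2 fell, against 16% and 14.5% of all genes, with a median of -0.15. With the block 3 rose and 5 fell, against 22.5% and 29.1% of all genes. After GC correction 2 rose and 6 fell, against 27.9% and 24.7%. Smarca1, the ISWI ATPase SNF2L, rose by 1.61 ± 0.31 on the log2 scale (adjusted p = 0.0315) and Chd3 by 1.55 ± 0.36 (adjusted p = 0.0455), a call lost in 9 of 22 alternatives, while Ep400 fell by 1.23 ± 0.21 (adjusted p = 0.0241) and Chd7 by 1.17 ± 0.20 (adjusted p = 0.0257).

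Marker genes of several cell types differed between the days too, and in bulk RNA a change in the number of cells of a type and a change in RNA per cell cannot be told apart. The main-test counts of each list below stand against 16% of all genes called higher and 14.5% called lower. Counts with the replicate block stand against 22.5% and 29.1%, and those after GC correction against 27.9% and 24.7%. Every marker named lost its call in at least the fits that left out a day 4 RNA sample. Of 10 pluripotent cell markers, 9 fell and 0 rose, and their summed FPKM was 114.7 to 214.7 in the day 0 vials and 8.61 to 14.1 in the day 4 vials. The log2 fold changes were -6.71 for Tdgf1, -5.91 for Pou5f1, -4.19 for Fgf4 and -2.96 for Dppa5a. Pou5f1, which defines the labelled stem cells, was at 87.3 and 37.2 FPKM at day 0 and at 1.03 and 0.69 FPKM at day 4.

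Of 8 neural progenitor markers, 3 rose and 1 fell. Pax6 and Neurog2 were among those that rose, but to at most 0.42 FPKM in any RNA sample, and Sox1 fell and was at 0.04 and 0.05 FPKM at day 4. The fall of Sox1 did not pass after GC correction (-0.25, adjusted p = 0.572), and the call of Neurog2 was lost in 13 of 21 alternatives. The summed FPKM of this list overlapped between the days, with 26.9 to 31.99 at day 0 and 25.4 to 28.1 at day 4. Of 10 neuron markers, 3 rose and 3 fell: Dcx, a protein of migrating young neurons, was at 0.01 and 0.02 FPKM at day 0, against 2.13 and 2.503 FPKM at day 4, Syt1 and Rbfox3 rose to at most 0.91 FPKM, and Tubb3 fell by 3.66 on the log2 scale. With the replicate block 5 of the 10 rose and 3 fell. The summed FPKM of this list was 15.0 to 39.95 in the day 0 vials and 14.02 to 16.2 in the day 4 vials. The part of cell makeup in the changes of the subunits was not tested.

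Of 6 heart muscle markers, 1 rose and 2 fell. Tbx5, a heart and limb transcription factor, had 0.03 and 0.02 FPKM at day 0, then 1.62 and 1.48 FPKM at day 4, while Actc1 fell by 2.65 and Myh6 by 1.70 on the log2 scale. With the block 1 of the 6 rose and 4 fell, and after GC correction 2 rose and 3 fell. Of 6 endoderm markers, 4 rose and 1 fell, with a summed FPKM of 17.1 to 20.4 in the day 0 vials and 75.6 to 78.5 in the day 4 vials. Gata6 was at 6.25 and 6.47 FPKM at day 0 and at 53.2 and 55.7 FPKM at day 4, Afp and Gata4 rose by 2.74 and 1.501 on the log2 scale, and Sox7 fell by 1.64. Of 7 markers of mesoderm, blood and vessels, 1 rose and 3 fell, with log2 fold changes of -9.13 for T, -1.38 for Kdr and 2.07 for Twist1. The rise of Twist1 did not pass after GC correction (3.03 ± 1.01, adjusted p = 0.0719), when its day 0 RNA samples were at 3.07 and 21.3 FPKM, and with the block 2 of the 7 rose and 3 fell. Mesp1 had 7.63 and 4.005 FPKM at day 0 and was listed at 0 at day 4. Of 8 cell cycle genes, 0 rose and 2 fell, Mcm2 by 1.68 and Ccnb1 by 0.78, and the other 6 did not pass. With the replicate block 4 of the 8 fell, without the 2 vials 4 and after GC correction 6, against 29.1%, 34.2% and 24.7% of all genes, and 0 rose in each.

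The genes whose levels followed those of the low members most closely over the 16 libraries were, for Smarcd3, Mmp11 (Pearson r = 0.996), Rnd1 (0.995) and Dcaf5 (0.994). For Dpf1 they were Flot1 (0.988), Brf1 (0.988) and Zfyve1 (0.986), among 11584 genes with a mean of at least 1 FPKM. These correlations of log2(FPKM + 0.1) describe 16 libraries from 4 RNA samples that share the GC trend, and no such genes are given for Actl6b, which was above 0 in 1 library.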

How the data were processed

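Total RNA of 4 RNA samples in 16 vials was measured. According to the labels and the study's methods, the authors mapped reads with Bowtie2 2.1.0 to RefSeq transcripts of mm10 with the spike-in transcripts, estimated isoform levels with RSEM 1.2.18 and deposited FPKM per transcript, scaled by a TMM factor per library. TopHat2 2.0.10 is named too. The RNA sample of each vial comes from the study's sample description. FPKM of a gene's transcripts were summed (99.2% of 33702 RefSeq rows had a symbol, 48 spike-in rows were left out), vials were averaged, genes at 0 throughout were dropped, and log2(FPKM + 0.1) was tested with limma 3.58.1 in R 4.3.3 (empirical Bayes with trend, Benjamini-Hochberg, adjusted p at most 0.05). Tables were made with Python 3.11.15 and pandas 2.3.3. Transcript coordinates come from GENCODE on GRCm38, the build called mm10.

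The study states that the whole procedure was repeated to give the replicates, so the replicate number was used as a block in an alternative. Differences between replicates correlated between the days (r = 0.769 over 11584 genes). For each mix, RNA sample 1 had the higher GC slope at both days, and the part of the GC trend in this correlation was not tested. The GC correction divided each library by its median deviation in 20 bins of transcript GC content. Other alternatives were pseudocounts of 0.01 and 1, filters, 2 scalings, log means, vials as 16 libraries, fits without the trend, single mixes, and each RNA sample or 2 vials left out. On simulated data for the comparison of the days (20491 genes, 2 samples per day) the test recovered 0% of log2 changes of 1, 18% of 2, 72% of 3 and 96% of 4. Only 50 genes of each size were changed there, whereas 30.5% of all genes were called in the data. The Benjamini-Hochberg cutoff is stricter when few genes change, so these percentages do not give the recovery in the data. The named genes were all 10 members and their transcripts, the other subunits and REST genes, and up to 4 called genes with the largest change of every other list, of which 1 is not reported here. The members and lists were chosen with earlier results of these data known.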

Additional observations from a re-analysis of the deposited data

Results flagged for a closer look

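Over the 8 vials of each day, 1 of the member values was flagged as lying far from the rest. Actl6b was at 0.022 FPKM in 1 vial of day 0, that of mix 3 of RNA sample 1, and at 0 in the other 7. Any lone value above 0 among vials at 0 is flagged in this way, so no chance rate is set beside it.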

How the results depend on the processing

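Depth is not in the table, and with 2 RNA samples per day single values limit the calls. Under 23 alternatives, 3 of them chosen after the data were seen (mixes 1 and 2 only, GC correction with the block, and the full-length Smarca2 transcript in the ratio), Smarca2, Smarcd3 and Actl6a kept their direction wherever they were tested. The numbers of genes called were 3280 higher and 2971 lower. Genes called higher were 2092 with a mean of at least 1 FPKM, 5560 without the 2 vials, 5141 from mix 1, 400 from mix 3, 836 from mix 4, 5621 after GC correction, 5238 from mixes 1 and 2 and 6070 with GC correction and the replicate block. Genes called lower were 1644 with no filter, 5969 with the replicate block, 6966 without the 2 vials, 4580 over 16 libraries with the vials of an RNA correlated, 7163 from mix 1, 5240 from mix 2, 82 from mix 3, 283 from mix 4, 4982 after GC correction, 6830 from mixes 1 and 2 and 5574 with GC correction and the replicate block. Leaving out 1 RNA sample gave 0 to 3890 genes higher and 0 to 5930 lower: limma called 0 genes without day 4 RNA sample 1 and 0 without RNA sample 2, where 4861 and 4572 genes had an unadjusted p of at most 0.05. The lone sample was assumed there to vary like the pair of the other day. The replicate block added calls of Smarca4, Smarcc2 and Smarcd1 and changed no other call of a member.

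Members called higher, 2 in the main test, were 1 with no filter, 1 from log means, 0 from mix 3, 0 from mix 4, 4 after GC correction and 4 with GC correction and the block, and 0 to 3 without 1 RNA sample. Members called lower, 1 in the main test, were 0 with no filter, 0 with equal sums per library, 0 from log means, 0 from mix 3, 0 from mix 4, 2 over 16 libraries, 2 after GC correction, 3 with the replicate block, 3 without the 2 vials, 3 from mix 2, 3 from mixes 1 and 2, 3 with GC correction and the block and 4 from mix 1, and 0 to 3 without 1 RNA sample. Member transcripts called higher, 1 in the main test, were 2 with a pseudocount of 0.01, 0 with 1, 2 with a mean of at least 1 FPKM, 0 with no filter, 3 with the replicate block and 3 without the 2 vials, and 0 to 1 without 1 RNA sample. Those called lower, 0 in the main test, were 1 with a mean of at least 1 FPKM, 6 with the replicate block and 6 without the 2 vials, and 0 to 3 without 1 RNA sample. The numbers of all genes called moved with the settings too, with 400 higher and 82 lower from mix 3 and 5141 and 7163 from mix 1. Of all transcripts, 10.2% were called higher and 8.67% lower in the main test, and 14.7% and 20.9% with the replicate block. The counts of members and of their transcripts are therefore not read as results about the members. Equal sums per library moved the median of all genes from -0.03 to 0.08.

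The ratio Smarca2 over Smarca4 changed by 1.78 after GC correction, 3.89 from mix 1, 1.81 from mix 3, 1.91 from mix 4, 0.64 with the full-length transcript and 2.12 to 3.72 without 1 RNA sample. Smarcc2 over Smarcc1 changed by 1.85 after GC correction and 0.79 to 1.52 without 1 RNA sample. Smarcd3 over Smarcd1 changed by 3.28 with a pseudocount of 0.01, 2.60 with 1, 3.29 from log means, 3.13 without the 2 vials, 3.39 after GC correction, 2.96, 3.48 and 3.55 from mixes 1, 3 and 4, and 3.14 to 3.25 without 1 RNA sample. Dpf1 over Phf10 changed by -0.20 in the main test, 1.23 after GC correction, -1.12 from mix 1, 0.77 from mix 3, 0.51 from mix 4 and -0.93 to 0.54 without 1 RNA sample. Signs turned for Smarcc1 with equal sums (0.079) and for Smarcd1 after GC correction with and without the block (0.21). For Phf10 they turned in mix 3 (-0.042), in mix 4 (-0.066), after GC correction with and without the block (-0.083) and on leaving out 1 RNA sample (-0.13 to 0.16). For Dpf1 they turned with equal sums (0.11), in mix 3 (0.73), in mix 4 (0.44), after GC correction with and without the block (1.14) and on leaving out 1 RNA sample (-0.76 to 0.41). Arid1a (0.074), Smarcb1 (0.20) and Pbrm1 (-0.12) turned after GC correction with and without the block, and NM_001114096 on leaving out 1 RNA sample (-0.070 to 1.60). The causes were not tested.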
